A study of Mus musculus with 12 samples.

Results

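The Toll-like receptors (TLRs) of a B cell and the proteins that carry, tune or restrain them were described here through 10 genes, namely Tlr1, Tlr3, Tlr4, Tlr6, Tlr7, Tlr9, Cd180, Unc93b1, Myd88 and Irak3. Rows were taken by gene symbol, a rule that uses no measured value, although the 10 symbols were drawn up with earlier results of these data known. They were 10 of the 24046 rows that each count file lists. All 10 passed the filter on low counts and stood among the 12242 genes tested.

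The RNA came from follicular (FO) B cells, the main recirculating B cell type of the mouse spleen, which were sorted from Jmjd1c KO and WT mice. JMJD1C is a histone demethylase of the JmjC family. Each of 6 animals, 3 KO and 3 WT, gave a library at 2 h of anti-IgM, which engages and cross-links the antigen receptor, and another at 0 h. The 4 groups of 3 libraries were therefore KO at 2 h, KO at 0 h, WT at 2 h and WT at 0 h, and the replicate numbers 1 to 3 are given in the labels as batches that both genotypes and both times share. The mice's age, the allele, the deleted exons and any Cre driver remain not given in the sources used here. There was no library at 2 h without anti-IgM, so time in culture and receptor cross-linking cannot be told apart in the comparison of times.

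TLRs recognise conserved parts of microbes, mostly with the lipid and protein sensors at the cell surface and the nucleic acid sensors in endosomes. UNC93B1 carries the endosomal receptors out of the endoplasmic reticulum, MYD88 links most TLRs to the IRAK kinases and so to NF-kB, and IRAK3 (also called IRAK-M) is an IRAK family member without effective kinase activity that restrains the signal. B cells carry TLRs together with their antigen receptor, so a B cell whose antigen receptor is engaged can also respond to microbial lipids, RNA or DNA.

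Between 2 h and 0 h, Cd180 was called higher and Irak3 called lower in both genotypes. The RefSeq promoter sequences (GRCm38.p6, from 250 bases before to 50 bases after an annotated start) are shown for these genes and for Tlr9, whose window held the most motif matches. Entries were matched for 7 of the 10 genes, and Tlr4, Tlr7 and Unc93b1 had no match. Capitals mark matches to the motifs searched. The windows are chr13:102693297-102693596 (plus strand) for Cd180, chr10:120201548-120201847 and chr10:120202081-120202380 (minus strand) for the starts of Irak3, and chr9:106222348-106222647 (plus strand) for Tlr9, each written in the direction of transcription.
Cd180: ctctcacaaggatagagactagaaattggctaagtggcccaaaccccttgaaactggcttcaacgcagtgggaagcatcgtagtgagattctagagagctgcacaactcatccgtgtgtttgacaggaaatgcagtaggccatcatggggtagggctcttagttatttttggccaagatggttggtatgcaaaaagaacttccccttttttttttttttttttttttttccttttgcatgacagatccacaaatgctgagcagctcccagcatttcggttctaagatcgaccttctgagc
Irak3, start with matches: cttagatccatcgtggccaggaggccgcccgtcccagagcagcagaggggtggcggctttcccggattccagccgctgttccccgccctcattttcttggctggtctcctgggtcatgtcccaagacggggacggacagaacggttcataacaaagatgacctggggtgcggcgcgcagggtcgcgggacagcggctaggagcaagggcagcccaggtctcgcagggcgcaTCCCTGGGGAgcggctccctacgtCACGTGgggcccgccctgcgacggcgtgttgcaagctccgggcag
Irak3, other start: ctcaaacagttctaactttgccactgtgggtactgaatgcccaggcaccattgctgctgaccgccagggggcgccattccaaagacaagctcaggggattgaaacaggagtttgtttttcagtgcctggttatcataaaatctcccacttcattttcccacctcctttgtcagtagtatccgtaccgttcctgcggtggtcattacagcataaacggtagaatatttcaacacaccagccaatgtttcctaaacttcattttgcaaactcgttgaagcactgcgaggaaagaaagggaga
Tlr9: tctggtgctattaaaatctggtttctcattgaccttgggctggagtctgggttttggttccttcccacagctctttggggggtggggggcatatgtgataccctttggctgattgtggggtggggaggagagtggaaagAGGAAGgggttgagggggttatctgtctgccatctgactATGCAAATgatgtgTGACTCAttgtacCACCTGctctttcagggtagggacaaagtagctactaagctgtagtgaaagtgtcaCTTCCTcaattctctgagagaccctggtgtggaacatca

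A total of 11 motifs was searched on both strands, as GGGA and TTCC with 2 free bases between them for NF-kB, TGANTCA for AP-1, GCGNGGGCG for EGR, AGGAAG for ETS factors and PU.1, GAAA, 2 free bases and GAAA for IRF, TGACGTCA for CRE, CACGTG for the MYC E-box, CAGGTG for the E2A E-box, TCCC, 2 free bases and GGGA for EBF, ATGCAAAT for the octamer and GTAAACA for FOXO. The Tlr9 window held the octamer with its first base at -72 from the start site, AP-1 at -58, an E2A E-box at -45 and ETS matches at -111 and 11. Of all 32851 promoter windows, 1.74% held the octamer, 7.81% AP-1, 20.2% the E2A E-box and 35.4% the ETS letters. One window of Irak3 held an EBF match at -19, found in 0.904% of all windows, and a MYC E-box at 5, found in 7.15%. The other Irak3 window, the Cd180 window shown and a further Cd180 window (chr13:102693308-102693607) held none of these letters. The Irak3 window with matches had 26 CpG dinucleotides and a GC content of 67.3%, against 8 and 46.7% in the other one, 5 and 44% in the Cd180 window shown, and 0 and 49.7% in Tlr9. Among the remaining genes, Tlr6 had IRF matches at -116 and -110 that overlap, Myd88 had one at -40 and Tlr3 had an NF-kB match at -211. Tlr6 also had an ETS match at -61 in that window and another at 15 in its other window. Tlr1 had a MYC E-box at -195 in a first window, and an E2A E-box at -82 and an ETS match at -22 in its other window. The IRF and NF-kB letters stood in 3.44% and 1.47% of all windows. A match is a run of letters and was not tested as a binding site.

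On GRCm38, from the GENCODE annotation, Tlr1 lies on chromosome 5 from 64924679 to 64933563 and Tlr6 on the same strand from 64952031 to 64960097, 18467 bases apart. Tlr3 lies on chromosome 8 from 45395665 to 45411080, Tlr4 on chromosome 4 from 66827584 to 66930284, Tlr7 on chromosome X from 167304929 to 167330558 and Tlr9 on chromosome 9 from 106222598 to 106226883. Cd180 lies on chromosome 13 from 102693558 to 102739629, Unc93b1 on chromosome 19 from 3935186 to 3949340, Myd88 on chromosome 9 from 119335934 to 119341411 and Irak3 on chromosome 10 from 120141648 to 120202130. Tlr1 and Tlr6 are close paralogs, so their counts are uncertain where reads could be shared. The counting strand remains not given in the sources used here, and exons on the opposite strand overlap Cd180 (364 bases with Mast4), Myd88 (655 with Acaa1a), Irak3 (192 with Tmbim4 and 56 with Gm47009) and Tlr3 (547 with Gm45542). Reads of these partners cannot be told apart there.

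Total counts were between 5666013 and 14153396 per library. The 45S ribosomal RNA row, Rn45s, took 52.3% of the counts in KO 2 h replicate 1 and 24.8% in WT 2 h replicate 1, 12.9% to 15.5% in the libraries of batch 2, and at most 1.09% elsewhere. Summed Y-linked genes were at 48.0 and 11.8 CPM (the count of a gene relative to the TMM-scaled library size) in KO 2 h and WT 2 h replicate 1, against 0.984 and 0.476 CPM at 0 h in these animals, and between 374 and 491 CPM in batches 2 and 3. Xist, expressed from the inactive X chromosome, was at 618 and 1303 CPM in KO 2 h and WT 2 h replicate 1, and at 1184 and 1153 CPM at 0 h in these animals. It was between 32.35 and 53.5 CPM in batch 2 and between 0.863 and 1.47 CPM in batch 3. By these genes the animals of batch 1 were female and those of batches 2 and 3 male, so batch 1 and sex cannot be told apart. The source of the Y-linked counts in the 2 h libraries of batch 1 and of the Xist counts in batch 2 was not tested. Every value of replicate 1 at 2 h rests on the former libraries, and every value of replicate 2 on the latter. Mki67 was at 529 and 138 CPM in KO 2 h and WT 2 h replicate 1, against 13.5 and 8.81 CPM at 0 h in these animals. It was between 67.2 and 97.1 CPM in batch 2 and between 12.4 and 14.5 CPM in batch 3, and the source of this spread was not tested. All 6 B cell markers were above 3 counts in every library, as were the 3 matched follicular markers. Their sums were lower at 2 h for the B cell list (2365 to 3739 CPM in KO at 2 h, 4467 to 5139 in KO at 0 h, 2226 to 3323 in WT at 2 h, 3945 to 5036 in WT at 0 h). Ms4a1 of this list averaged 525 CPM in KO at 2 h, 567 in KO at 0 h, 462 in WT at 2 h and 459.5 in WT at 0 h. The other markers of the list had lower means at 2 h in each genotype. The follicular sums overlapped between times (632 to 1553 CPM in KO at 2 h, 1398 to 1578 in KO at 0 h, 1232 to 1477 in WT at 2 h, 1301 to 1636 in WT at 0 h). Jmjd1c, the targeted gene, was at 208, 213 and 199 CPM in KO at 2 h and 322, 294 and 269.5 CPM in WT at 2 h. At 0 h it was at 230.5, 236 and 196 CPM in KO and 359.7, 326 and 288 CPM in WT. KO and WT did not overlap at either time, and neither difference was called by edgeR's quasi-likelihood test with Benjamini-Hochberg adjustment (log2 difference -0.52 ± 0.13, adjusted p = 0.887 at 2 h, and -0.56 ± 0.13, adjusted p = 0.9999 at 0 h, SE).

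The 10 genes spanned a wide range of levels in resting WT cells. Per kilobase of transcript (the transcript with the longest coding sequence), Unc93b1 averaged 244 ± 45.2 CPM in WT at 0 h (SD, n = 3) and lay above 98.7% of the tested genes on the CPM scale. Next came Tlr9, the endosomal receptor for unmethylated CpG DNA, at 27.4 ± 3.91 CPM per kb, Tlr1, a surface receptor that pairs with TLR2 for triacylated lipopeptides, at 24.6 ± 5.61, Irak3 at 23.6 ± 1.003, Myd88 at 22.7 ± 1.11 and Cd180 at 20.3 ± 4.996. The ranges of these 5 genes overlapped, and their order is not fixed by these values. By coding length, Myd88 at 50.2 and Irak3 at 39.9 CPM per kb stood before Tlr1 at 31.2 and Tlr9 at 30.8.

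Below them came Tlr7, the endosomal sensor of single-stranded RNA, at 5.80 ± 4.48 CPM per kb in WT at 0 h, and Tlr4, the lipopolysaccharide receptor, at 2.55 ± 0.72. The libraries of these genes overlapped. Tlr6, which pairs with TLR2 for diacylated lipopeptides, followed at 1.30 ± 0.40, and Tlr3, the sensor of double-stranded RNA, was lowest at 0.334 ± 0.202 CPM per kb, with between 0 and 41 counts per library. Tlr4, Tlr6 and Tlr3 did not overlap with each other. In bulk libraries, fewer cells that carry a transcript and less transcript per cell cannot be told apart.

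**Figure D1:**
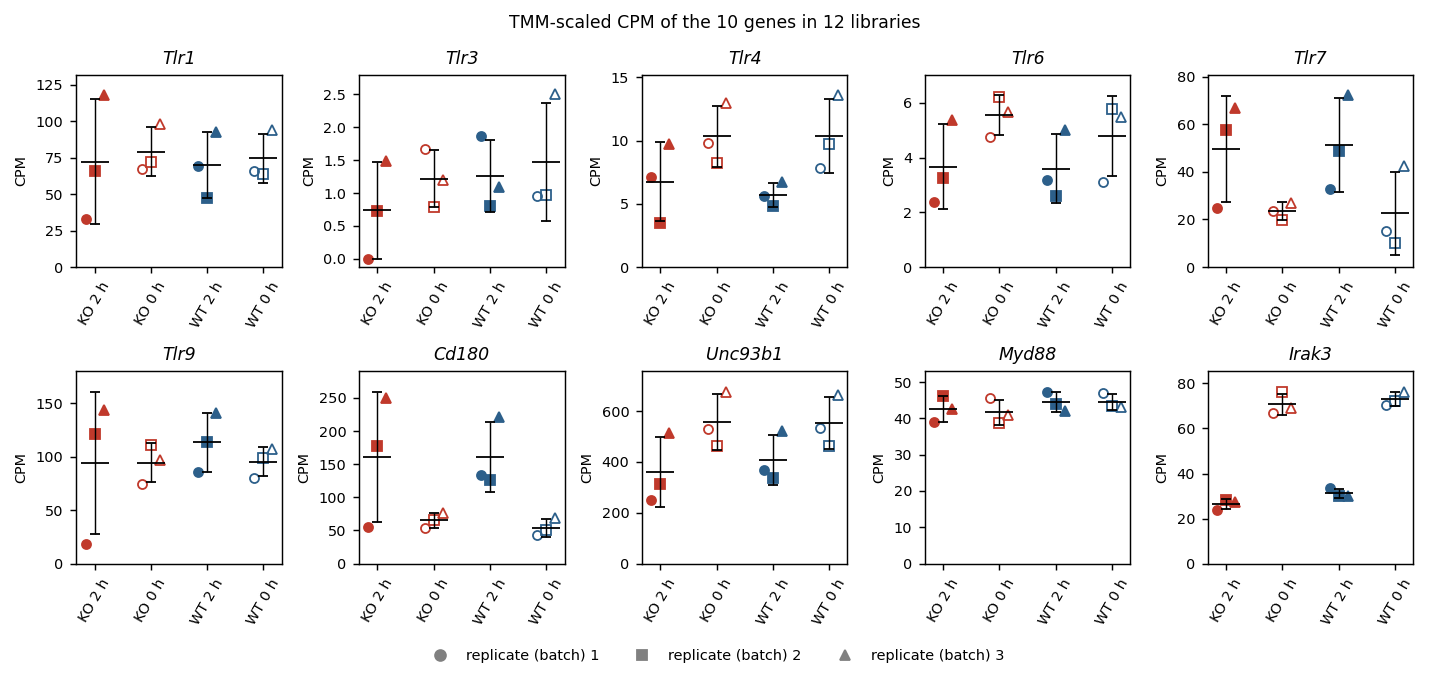
TMM-scaled CPM of each of the 10 genes in the 12 libraries, with KO in red and WT in blue, filled symbols for 2 h and open symbols for 0 h; the shape gives the replicate (batch), and bars give the mean and SD of 3 libraries. Irak3 sits between 24.0 and 33.7 CPM in the 6 libraries at 2 h and between 67.0 and 76.4 CPM in the 6 at 0 h, and KO 2 h replicate 1 (filled red circle) is the lowest of its group for Tlr1, Tlr3, Tlr6, Tlr7, Tlr9, Cd180, Unc93b1, Myd88 and Irak3.

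Cells at 2 h of anti-IgM were compared with cells at 0 h of the same genotype. Of the 10 genes, edgeR called 1 higher and 1 lower at 2 h in KO, where 14.1% of all tested genes were called higher and 13.0% lower (27.1% in all). In WT it also called 1 higher and 1 lower, where 10.7% of all tested genes were called higher and 9.06% lower (19.8% in all). The share of the 10 genes called was thus near that of all genes. The median log2 difference of the 10 genes was -0.30 in KO, beside 0.04 over all tested genes, and -0.17 in WT, beside 0.01. Groups did not overlap for 1 gene of 10 in KO, where this held for 37.5% of all tested genes, and for 3 genes of 10 in WT, where it held for 43.9%.

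Among the surface receptors and their regulators, Cd180 was called in both genotypes. CD180 (RP105) is a TLR4-like receptor without a signalling TIR domain, which sits on B cells with its partner MD-1 and can both drive B cell activation and restrain TLR4. Cd180 was at 55.8, 178 and 250.4 CPM in KO at 2 h and at 54.3, 65.3 and 76.0 CPM in KO at 0 h. In WT it was at 134, 127 and 222 CPM at 2 h, against 42.7, 50.2 and 68.4 CPM at 0 h. The WT libraries did not overlap between times. In KO, replicates 2 and 3 at 2 h were above every 0 h library and replicate 1 lay among them. Cd180 rose by 1.32 ± 0.42 on the log2 scale in KO (SE; adjusted p = 0.0365) and by 1.58 ± 0.42 in WT (adjusted p = 0.0220; both edgeR's quasi-likelihood test with Benjamini-Hochberg adjustment over all genes). That is a 2.50-fold and a 2.99-fold difference.

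The Cd180 calls changed when libraries were left out. In KO, leaving out a KO library at 0 h ended the call (adjusted p = 0.124, 0.0950 and 0.0709 for replicates 1, 2 and 3), as did leaving out replicate 2 of KO at 2 h (0.0857) or of WT at 0 h (0.0554). Without KO 2 h replicate 3 the log2 difference was 0.86 (adjusted p = 0.122), and from the KO groups alone it was 1.31 (adjusted p = 0.1065). In WT, leaving out replicate 1 or 2 at 0 h (0.0919 and 0.0757) or replicate 3 at 2 h (0.0923) ended it. When the KO and WT libraries of batch 1 at 2 h, those with the most Rn45s, were left out, the log2 difference was 1.68 in KO (adjusted p = 0.00126) and 1.66 in WT (adjusted p = 0.00154; all edgeR). Mast4, which overlaps Cd180 on the other strand, had log2 differences of -0.33 ± 0.20 in KO and 0.02 ± 0.20 in WT and was not called.

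Summed markers of other cells were also compared between the times. The marginal zone sums overlapped between times in KO and not in WT, and the dendritic cell sums overlapped in neither genotype. The 6 marginal zone B cell markers summed to between 413 and 855 CPM in KO at 2 h, 395 and 438 in KO at 0 h, 551 and 790 in WT at 2 h and 390 and 418 in WT at 0 h, with all 6 above 3 counts in every library. These markers did not move one way (single markers are named here after their values were seen). S1pr3 rose by 3.79 ± 0.35 in KO and by 4.04 ± 0.36 in WT on the log2 scale, whereas Cd1d1 fell by 1.05 ± 0.28 in KO and by 0.88 ± 0.28 in WT. In WT edgeR also called Cr2 higher (1.004 ± 0.31) and Mzb1 lower (-1.21 ± 0.31), with differences of 0.86 ± 0.31 and -0.86 ± 0.31 in KO that were not called, and Dtx1 and Cd9 were not called in either genotype. The 8 dendritic cell markers summed to between 29.4 and 34.4 CPM in KO at 2 h, 15.5 and 18.7 in KO at 0 h, 24.0 and 44.3 in WT at 2 h and 11.3 and 17.5 in WT at 0 h, and between 3 and 5 of them were above 3 counts in every library of a group. Of the 4 that passed the filter, only Zbtb46 in WT was called (higher, by 1.96 ± 0.47), and Zbtb46, Flt3 and Ccr9 had the largest means, each higher at 2 h. Itgax averaged 1.15 CPM in KO at 2 h and 2.18 in KO at 0 h, and 1.92 in WT at 2 h and 2.90 in WT at 0 h, and Siglech, Cd209a, Xcr1 and Clec9a averaged under 1 CPM in every group. For macrophages, monocytes and neutrophils, 10 of 12 markers were matched, and their sums overlapped between times (51.9 to 146 CPM in KO at 2 h, 40.5 to 78.6 in KO at 0 h, 44.8 to 70.5 in WT at 2 h, 29.9 to 79.0 in WT at 0 h). The 4 B1 cell markers summed to between 84.15 and 158 CPM in KO at 2 h and 61.1 and 73.3 in KO at 0 h. Their sums overlapped in WT (76.4 to 92.0 CPM at 2 h, 46.4 to 81.5 at 0 h). Those of the plasma cell, T and NK cell and red cell lists overlapped between times in both genotypes. No matched marker of these lists was at 0 in every library. Their part in the levels of the 10 genes was not tested.

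Tlr1 was at 33.1, 65.7 and 118 CPM in KO at 2 h and 67.2, 72.1 and 98.3 CPM in KO at 0 h. WT libraries had 69.5, 47.7 and 92.9 CPM at 2 h and 65.5, 63.8 and 94.0 CPM at 0 h. The groups overlapped in both genotypes, and the log2 differences were -0.10 ± 0.37 in KO and -0.08 ± 0.37 in WT. In KO the Tlr1 difference was 0.18 ± 0.32 once the batch 1 libraries at 2 h were left out. Tlr6, its neighbour, was between 2.37 and 5.38 CPM in KO at 2 h, 4.77 and 6.22 in KO at 0 h, 2.59 and 5.02 in WT at 2 h and 3.09 and 5.79 in WT at 0 h, and it was not called (log2 differences -0.55 ± 0.37 and -0.39 ± 0.37).

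Tlr4 was at 7.10, 3.50 and 9.71 CPM in KO at 2 h and 9.84, 8.26 and 13.0 CPM in KO at 0 h. Its WT values were 5.59, 4.85 and 6.75 CPM at 2 h and 7.85, 9.77 and 13.6 CPM at 0 h. It was lower at 2 h than at 0 h in each of the 6 animals, and the WT groups did not overlap. The share of all tested genes with 1 direction in all 6 animals was not counted, for Tlr4 or for the genes below. The log2 differences of Tlr4 were -0.61 ± 0.35 in KO (adjusted p = 0.217) and -0.86 ± 0.35 in WT (adjusted p = 0.114), which edgeR did not call. With the batch as a block in the same fit, edgeR called Tlr4 lower in WT (-0.85 ± 0.25, adjusted p = 0.0318), as it did from the WT groups alone (adjusted p = 0.044) and when replicate 2 of KO at 2 h was left out (0.0495). In all it was called lower in WT under 5 of 23 alternatives. A block for animal did not give a call (-0.84 ± 0.25, adjusted p = 0.0505) in WT, and neither did leaving out the KO and WT libraries of batch 1 at 2 h (-0.87 ± 0.42, adjusted p = 0.156). The KO difference of Tlr4 lay between -1.04 and -0.29 over the same alternatives and was called in 2, both with the batch as a block.

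Among the endosomal receptors, Tlr7 was at 24.7, 57.6 and 66.9 CPM in KO at 2 h and 23.5, 19.7 and 27.1 CPM in KO at 0 h. In WT it was at 32.7, 48.8 and 72.2 CPM at 2 h and 14.99, 10.3 and 42.6 CPM at 0 h. Tlr7 was higher at 2 h in each of the 6 animals, by 0.07 on the log2 scale in KO replicate 1 and by between 0.76 and 2.23 in the other 5. The groups overlapped through KO 2 h replicate 1 and through WT 0 h replicate 3. edgeR did not call it (1.11 ± 0.49, adjusted p = 0.115 in KO, and 1.17 ± 0.49, adjusted p = 0.122 in WT). Once batch entered the fit as a block it was called higher in both genotypes (1.03 ± 0.34, adjusted p = 0.0438 in KO, and 1.25 ± 0.34, adjusted p = 0.0219 in WT). With the animal as a block it was called in WT (1.33 ± 0.34, adjusted p = 0.0308) and not in KO (1.03 ± 0.34, adjusted p = 0.0594). Leaving out the KO and WT libraries of batch 1 at 2 h gave a call in KO (1.37 ± 0.46, adjusted p = 0.0447, edgeR). The same step gave none in WT (1.36 ± 0.46, adjusted p = 0.0502, edgeR). In all, Tlr7 was called higher under 6 of 23 alternatives in KO and 5 of 23 in WT. When replicate 3 of WT at 0 h was left out the WT difference was 2.02 (adjusted p = 0.0154) and the KO difference 1.11 (0.0452), and without replicate 1 of KO at 2 h the KO difference was 1.41 (0.0435).

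Tlr9 was at 18.6, 121 and 143.5 CPM in KO at 2 h and 74.9, 111 and 97.0 CPM in KO at 0 h. The WT values were 85.4, 114 and 141 CPM at 2 h and 80.4, 98.7 and 107 CPM at 0 h. KO 2 h replicate 1 was the lowest of the 12 libraries, and the other 5 animals each had a slightly higher value at 2 h, by between 0.09 and 0.56 on the log2 scale. The log2 differences of Tlr9 were 0.03 ± 0.48 in KO and 0.25 ± 0.48 in WT, and neither was called. Leaving out the KO and WT libraries of batch 1 at 2 h gave a Tlr9 difference of 0.45 in KO (adjusted p = 0.0915, edgeR), which was not called. With the batch as a block as well, a combination chosen after seeing the data, it was 0.33 ± 0.11 in KO and was called higher (adjusted p = 0.0300). With all 12 libraries the KO difference of Tlr9 turned negative under a block, at -0.15 ± 0.39 for batch and -0.29 ± 0.41 for animal, and was not called. Tlr3 was between 0 and 1.49 CPM in KO at 2 h, 0.792 and 1.67 in KO at 0 h, 0.808 and 1.86 in WT at 2 h and 0.952 and 2.50 in WT at 0 h. The limit that a count of 0 allows was between 0.183 CPM in WT 0 h replicate 3 and 1.02 CPM in KO 2 h replicate 1. Tlr3 had a count of 0 in KO 2 h replicate 1 and lay above the limit of the library in every other one, with 41 counts in WT 0 h replicate 3. No difference in Tlr3 was detectable at this depth.

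Unc93b1 was at 249.6, 313 and 514 CPM in KO at 2 h and 528, 461.5 and 676.5 CPM in KO at 0 h. In WT it was at 367, 335 and 519.9 CPM at 2 h and 533, 462 and 664 CPM at 0 h. Replicate 3 at 2 h reached into the 0 h range in each genotype, yet each of the 6 animals had the lower value at 2 h, by between 0.35 and 1.08 on the log2 scale. edgeR did not call it (-0.63 ± 0.27, adjusted p = 0.110 in KO, and -0.44 ± 0.27, adjusted p = 0.303 in WT). A batch block brought it past the threshold: it was called lower in both genotypes (-0.66 ± 0.15, adjusted p = 0.00784 in KO, and -0.455 ± 0.15, adjusted p = 0.0479 in WT), and with the animal as a block in KO (-0.675 ± 0.16, adjusted p = 0.0195). Without KO 2 h replicate 3 the KO difference was -0.98 (adjusted p = 0.0152). With the animal as a block edgeR did not call Unc93b1 in WT (-0.45 ± 0.16, adjusted p = 0.0880). Leaving out the KO and WT libraries of batch 1 at 2 h gave no call either (-0.46 ± 0.27, adjusted p = 0.240 in KO, and -0.41 ± 0.27, adjusted p = 0.300 in WT).

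**Figure D2:**
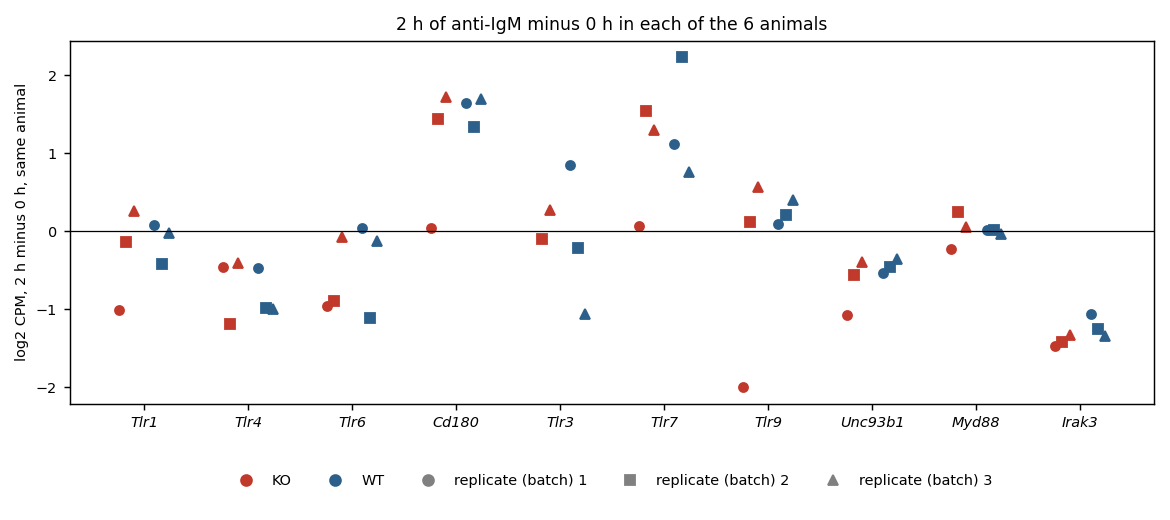
Difference in log2 CPM between 2 h and 0 h in each animal, with KO in red and WT in blue and the shape giving the replicate (batch); the value of Tlr3 in KO replicate 1 is left out because its count at 2 h was 0. All 6 animals lie below 0 for Irak3, Tlr4 and Unc93b1 and above 0 for Cd180 and Tlr7, with KO replicate 1 at 0.04 for Cd180, at 0.07 for Tlr7 and at -1.998 for Tlr9. The share of all tested genes with all 6 animals on the same side of 0 was not counted.

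Of the signalling proteins, Irak3 was called in both genotypes. It was at 24.0, 28.3 and 27.3 CPM in KO at 2 h and 67.0, 76.1 and 69.2 CPM in KO at 0 h. WT cells had 33.7, 30.1 and 29.97 CPM at 2 h and 70.4, 72.1 and 76.4 CPM at 0 h. Every 2 h library lay below every 0 h library. Irak3 fell by 1.40 ± 0.10 on the log2 scale in KO (adjusted p = 2.10e-05) and by 1.22 ± 0.10 in WT (adjusted p = 5.82e-05; edgeR's quasi-likelihood test with Benjamini-Hochberg adjustment). KO 2 h cells thus held 0.378 times and WT 2 h cells 0.428 times the 0 h level. Both calls held under each of 23 alternative settings, with log2 differences between -1.45 and -1.35 in KO and between -1.35 and -1.19 in WT. Tmbim4, which overlaps Irak3 on the other strand, had log2 differences of -0.42 ± 0.20 in KO (adjusted p = 0.138) and -0.62 ± 0.20 in WT (adjusted p = 0.0482), and its part in the Irak3 counts was not tested.

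Myd88 was at 38.9, 46.1 and 42.7 CPM in KO at 2 h and 45.5, 38.7 and 41.0 CPM in KO at 0 h. In WT it was at 47.4, 43.8 and 42.1 CPM at 2 h and 47.1, 43.4 and 43.2 CPM at 0 h. All groups overlapped. The log2 differences were 0.03, with a 95% interval from -0.20 to 0.26, in KO and -0.01, from -0.23 to 0.22, in WT.

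The patterns most like those of the called genes were sought over all 12 libraries, as the smallest root mean square distance in centred log2 CPM. For Cd180 they were those of Pdcd1lg2 at 0.178, Snn at 0.237 and Nxpe4 at 0.262. For Irak3 they were Man2a1 at 0.0905, Rassf3 at 0.101 and Gdi2 at 0.109. These distances describe the 12 libraries, which share depth and batch, and carry no test.

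KO cells were then compared with WT cells at each time. At 2 h edgeR called 0 of the 10 genes, where 0% of all tested genes were called, and at 0 h it likewise called 0 of 10, where 0% were called. At an unadjusted p under 0.05 there were 0 of the 10 genes at either time, beside 640 of all tested genes at 2 h and 91 at 0 h, and DESeq2 also called 0 of the 10. Groups did not overlap for 1 gene of 10 at 2 h, where this held for 8.22% of all tested genes, and for 0 of 10 at 0 h, where it held for 5.85%.

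That gene was Irak3, at 24.0, 28.3 and 27.3 CPM in KO at 2 h, against 33.7, 30.1 and 29.97 CPM in WT at 2 h. The log2 difference was -0.22 ± 0.10, with a 95% interval from -0.45 to 0.00, and was not called (unadjusted p = 0.0538, adjusted p = 0.887, edgeR). Within batches, KO minus WT at 2 h was -0.48 in batch 1, -0.09 in batch 2 and -0.13 in batch 3, in log2 CPM. At 0 h the KO libraries of Irak3 overlapped with the WT ones, and the log2 difference was -0.05 ± 0.10.

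For Cd180, KO minus WT at 2 h was -1.26 in batch 1, 0.49 in batch 2 and 0.18 in batch 3, in log2 CPM, so batch 1 differed in sign from the others. Its log2 difference was 0.02, with a 95% interval from -0.88 to 0.92, at 2 h and 0.28, from -0.64 to 1.19, at 0 h. The interval of Myd88 was narrow, from -0.28 to 0.18 at 2 h and from -0.32 to 0.13 at 0 h. Tlr7 and Tlr9 were measured less closely, with intervals from -1.08 to 1.04 and from -1.29 to 0.83 at 2 h. The widest belonged to Tlr3, from -2.13 to 1.07 at 2 h and from -1.78 to 1.22 at 0 h. A difference that misses the threshold does not show equal levels, and for these genes a change of up to the interval's bound could have been missed.

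**Figure D3:**
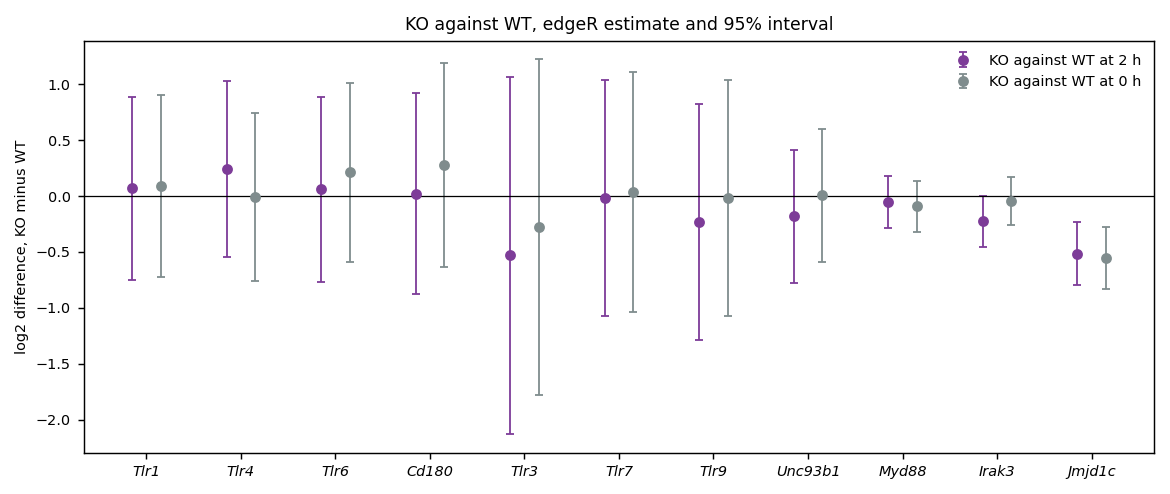
Log2 difference between KO and WT for the 10 genes and Jmjd1c at 2 h and at 0 h, as the edgeR estimate with its 95% interval from 12 libraries. All 20 intervals of the 10 genes include 0, and both intervals of Jmjd1c lie below 0.

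The responses to 2 h of anti-IgM were set against each other as the KO difference minus the WT difference. For this contrast edgeR called 0 of the 10 genes, where 0% of all tested genes were called, with 0 of the 10 and 39 of all tested genes at an unadjusted p under 0.05. DESeq2 called 0 as well. The value was -0.26, with a 95% interval from -1.54 to 1.03, for Cd180 and -0.18, from -0.49 to 0.14, for Irak3. It was 0.04, from -0.28 to 0.36, for Myd88.

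The rest of the pathway was described through 5 further lists. Of the 6 other TLRs, 2 passed the filter, namely Tlr2, the partner of TLR1 and TLR6, and Tlr12, a profilin receptor. Neither was called. Tlr2 averaged 8.70 ± 4.18 CPM in KO at 2 h, 7.27 ± 2.48 in KO at 0 h, 6.12 ± 0.783 in WT at 2 h and 6.35 ± 2.56 in WT at 0 h. Tlr12 averaged 0.811 ± 0.798 CPM in KO at 2 h and 2.60 ± 1.04 in KO at 0 h, and 1.55 ± 0.446 in WT at 2 h and 3.02 ± 1.22 in WT at 0 h. The times did not overlap in either genotype, and replicates 1 and 2 of KO at 2 h held 1 and 3 counts of Tlr12. The log2 differences of Tlr12 were -1.49 ± 0.60 in KO (adjusted p = 0.0859) and -0.97 ± 0.58 in WT (adjusted p = 0.284). In KO edgeR called Tlr12 lower with a block for batch (-1.67 ± 0.48, adjusted p = 0.0234) or animal (-1.82 ± 0.51, adjusted p = 0.0355) and without KO 2 h replicate 3 (-2.84 ± 0.64, adjusted p = 0.00880). Leaving out the KO and WT libraries of batch 1 at 2 h gave no call in KO (-1.27 ± 0.62, adjusted p = 0.155, edgeR). In WT edgeR did not call Tlr12 with a block for batch (-0.92 ± 0.45, adjusted p = 0.171) or animal (-0.95 ± 0.46, adjusted p = 0.203). Tlr11 had 1 count in 1 library, Tlr5 had 3 counts in 1 library, Tlr8 had at most 5 counts and Tlr13 at most 29.

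Of 16 receptor partners, trafficking and endosomal proteins, 2 were called higher and 1 lower in each genotype, with a median log2 difference of -0.11 in KO and -0.03 in WT. Over all tested genes 27.1% were called in KO and 19.8% in WT, with medians of 0.04 and 0.01. Slc15a3, an endolysosomal transporter of peptides and muramyl dipeptide, averaged 121 ± 68.4 CPM in KO at 2 h and 20.6 ± 4.23 in KO at 0 h, and 112 ± 38.6 in WT at 2 h and 15.6 ± 1.14 in WT at 0 h. It rose by 2.57 ± 0.37 in KO (adjusted p = 6.57e-04) and 2.84 ± 0.38 in WT (adjusted p = 5.93e-04) on the log2 scale. 5430427O19Rik, which the annotation lists under this identifier alone, rose by 1.01 ± 0.16 in KO and 1.03 ± 0.16 in WT. Pld4, an endolysosomal nuclease that degrades single-stranded DNA and RNA, fell by 1.42 ± 0.23 in KO, to 21.6 ± 4.58 CPM against 56.7 ± 11.3 at 0 h, and by 1.34 ± 0.22 in WT, to 18.3 ± 4.92 CPM against 46.5 ± 6.22 at 0 h. The calls of these 3 genes held in each genotype under all 23 alternative settings.

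Of 22 adaptors, kinases and ubiquitin ligases, 1 was called higher and 1 lower in KO, and 2 higher and 1 lower in WT, with a median log2 difference of -0.16 in KO and 0.00 in WT (all tested genes: 27.1% called and a median of 0.04 in KO, 19.8% and 0.01 in WT). Tab2, which couples TRAF6 to the kinase TAK1, fell by 0.39 ± 0.09 in KO and by 0.37 ± 0.09 in WT. The WT call of Tab2 ended when replicate 1 at 0 h (adjusted p = 0.0565) or replicate 2 at 2 h (0.0587) was left out, and without the filter on low counts (0.0607), and the KO call ended from the KO groups alone (0.077). Ticam2, the TLR4 adaptor TRAM, rose by 1.10 ± 0.24 in WT (adjusted p = 0.00781) and had a log2 difference of 0.64 ± 0.24 in KO (adjusted p = 0.0647). Pik3ap1, the PI3K adaptor BCAP, rose by 1.58 ± 0.40 in WT (adjusted p = 0.0165) and had a log2 difference of 1.01 ± 0.395 in KO (adjusted p = 0.0783). A batch block in the fit brought Ticam2 past the threshold in KO too (adjusted p = 0.0234). Without KO 2 h replicate 1 both were called in KO (0.81, adjusted p = 0.0141 for Ticam2, and 1.42, adjusted p = 5.98e-04 for Pik3ap1). The WT call of Pik3ap1 ended when replicate 1 or 3 at 0 h (adjusted p = 0.0669 and 0.0673) or replicate 2 at 2 h (0.0685) was left out. The difference between the responses was -0.45 ± 0.33 for Ticam2 and -0.57 ± 0.55 for Pik3ap1, and neither was called.

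Of 5 IRF factors, 1 was called higher and 2 lower in KO, and 1 higher and 0 lower in WT. The median log2 difference of the IRF factors was -0.19 in KO and -0.05 in WT, beside 0.04 and 0.01 over all tested genes, of which 27.1% were called in KO and 19.8% in WT. Irf8, a factor of B cell and myeloid development, averaged 939.5 ± 393 CPM in KO at 2 h and 425 ± 14.9 in KO at 0 h, and 1037 ± 222 in WT at 2 h and 413 ± 2.74 in WT at 0 h. It rose by 1.15 ± 0.27 in KO and by 1.33 ± 0.27 in WT, and the KO call was lost from the KO groups alone (adjusted p = 0.0537). Irf7, which acts downstream of TLR7 and TLR9 in interferon induction, fell by 0.94 ± 0.30 in KO (adjusted p = 0.0369) and had a log2 difference of -0.86 ± 0.29 in WT (adjusted p = 0.0586). The KO call of Irf7 was lost without any 1 of KO 0 h replicates 1, 2 and 3, KO 2 h replicates 1 and 3 and WT 2 h replicate 2 (adjusted p = 0.0943, 0.0931, 0.0559, 0.0565, 0.0976 and 0.0513). Once batch entered the fit as a block, Irf7 was called lower in WT as well (adjusted p = 0.0482).

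Of 15 proteins listed as brakes on the pathway, 4 were called higher and 4 lower in KO, and 5 higher and 3 lower in WT, with a median log2 difference of -0.14 in KO and 0.09 in WT. For all tested genes the shares called were 27.1% and 19.8%, and the medians 0.04 and 0.01. The list name is a label, and whether these proteins, Nfkbid and Peli1 among them, restrain the pathway in B cells was not tested. Nfkbid, a nuclear IkB protein that modulates NF-kB, averaged 582 ± 149 CPM in KO at 2 h and 167 ± 38.5 in KO at 0 h, and 578 ± 51.3 in WT at 2 h and 153 ± 25.1 in WT at 0 h. It rose by 1.80 ± 0.22 in KO and by 1.92 ± 0.22 in WT. Peli1, a ubiquitin ligase of the IRAK complex, fell by 1.38 ± 0.18 in KO, to 92.2 ± 9.76 CPM against 240.5 ± 45.2 at 0 h, and by 1.06 ± 0.18 in WT, to 105 ± 16.1 CPM against 218.5 ± 41.8 at 0 h. The calls of Nfkbid and Peli1 held under all 23 alternative settings in each genotype. Tnfaip3, the deubiquitinase A20, rose by 0.99 ± 0.27 in KO and by 1.22 ± 0.27 in WT. Its KO call ended when replicate 2 or 3 at 0 h (adjusted p = 0.0524 and 0.0746) or replicate 2 at 2 h (0.0719, at a log2 difference of 0.61) was left out, and from the KO groups alone (0.0628). Otulin, Nfkbia and Ptpn6 were also called higher in WT and Cyld and Tnip1 lower, and Rnf216 was called lower in KO alone. These genes are described here by the counts only. These counts, like those of the other lists, carry no test of the list.

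**Figure D4:**
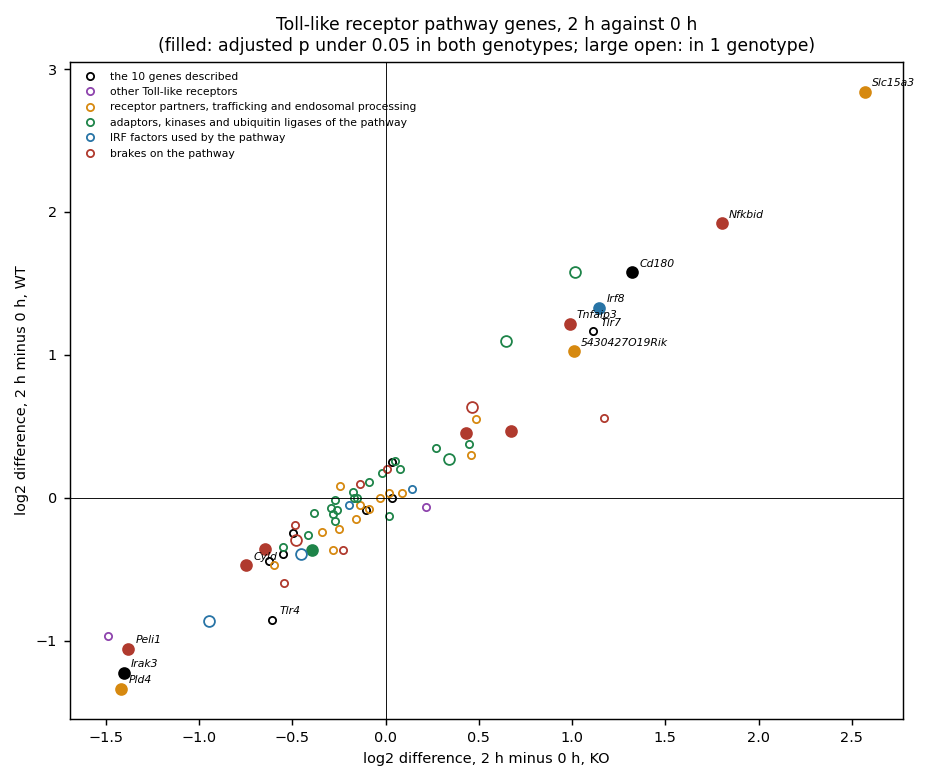
Log2 difference between 2 h and 0 h in KO (x axis) and in WT (y axis) for the 10 genes and the tested genes of the 5 further lists, each point 1 gene and each colour 1 list. Filled points were called by edgeR in both genotypes and large open points in 1; Slc15a3, Nfkbid, Cd180 and Irf8 lie at the upper right and Peli1, Irak3 and Pld4 at the lower left.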

How the data were processed

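Each of the 12 files held the deposited counts of 1 library, as whole numbers per gene symbol that the authors had not normalized. The aligner was STAR and the build mm10, per the submitters' processing notes. STAR version, counting tool, strand setting, treatment of multi-mapping reads and gene models remain not given in the sources used here. Each file lists 24046 rows, among them 27 symbols written like dates and 2 duplicated symbols, all kept.

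Genes were filtered with filterByExpr on the 4 groups (12242 left), scaled by TMM (factors 0.522 to 1.20) and fitted with edgeR 4.0.16 (R 4.3.3) in a quasi-likelihood model over the 12 libraries with a mean for each group, with two-sided tests, Benjamini-Hochberg adjustment over all tested genes and calls at adjusted p under 0.05. The SE was taken from the F statistic and 95% intervals from its degrees of freedom. The script was tested on simulated data. CPM values were computed here; log2 CPM used a prior count of 2. The limit that a count of 0 allows is 3 counts and covers counting error only. The p-values measure the spread between 3 libraries per group, estimated over all 4 groups, from 3 animals per genotype as the library names give them. The main fit did not pair the 2 h and 0 h libraries of an animal, nor the libraries of a batch. Only the alternatives with a block did.

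Transcript and coding lengths and positions came from GENCODE M21 (GRCm38), since the RefSeq table holds genomic lengths only, and promoters from RefSeq (GRCm38.p6). The 10 genes, the lists and the naming rule were chosen with earlier results of these data known. The rule names the 10 genes and Jmjd1c, called genes of the lists by smallest p in WT, and the 3 genes nearest in pattern to the 2 called genes. Not every called gene of the lists was described with its values. The replicate numbers pair the samples, since the labels give them as batches and the library names tie both times to an animal; deviations from group means correlated between -0.40 and 0.59 within an animal, -0.40 and 0.86 within a batch and -0.76 and 0.62 between batches. No libraries of a group agreed within sampling noise. Alternatives were other scaling (RLE, or without Rn45s), other filters, the groups compared alone, DESeq2 1.42.0, batch or animal as a block, and libraries left out.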

Additional observations from a re-analysis of the deposited data

How the results depend on the processing

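Over the 10 genes and 5 comparisons, 1120 values were recomputed under alternatives. Of these, 980 kept direction and side of the threshold, 10 lost a call, 28 gained one, 102 changed sign while called in neither fit, and 0 called differences reversed. The count of the 10 genes called at 2 h against 0 h, 2 in each genotype, was 4 in KO and 5 in WT with the batch as a replicate block, 5 and 5 with DESeq2 and that block, and 6 and 5 with the block once the KO and WT libraries of batch 1 at 2 h were left out. From the KO groups alone it was 1, and with single libraries left out it was between 1 and 3 in each genotype. With the animal as a block it was 3 in each. Over all genes, 3316 were called in KO and 2419 in WT. These all-gene counts were 3923 and 3048 with the batch block, 4465 and 3515 with DESeq2 and that block, and 3260 and 2405 with the animal block. They were 5516 and 5205 with the batch block and those libraries left out, and 1733 in KO from the KO groups alone. Leaving out single libraries gave between 2251 and 3849 in KO and between 1278 and 3617 in WT, with 1499 and 1476 when replicate 1 or 3 of WT at 0 h was left out and 1278 and 1540 when replicate 2 or 3 of WT at 2 h was. For KO against WT the count of 0 became 2 at 2 h and 1 at 0 h with DESeq2, 17 and 4 with DESeq2 and the batch block, and 2 and 5 with the block and those libraries left out. For the lists, the counts at 2 h against 0 h ranged over all alternatives from 0 to 8 in KO and 1 to 7 in WT for adaptors and kinases (2 and 3), from 1 to 4 and 1 to 3 for IRF factors (3 and 1), from 4 to 11 and 3 to 10 for brakes (8 and 8), from 3 to 4 in each genotype for partners (3 and 3), and from 0 to 1 in KO for the other TLRs (0). The causes were not tested. DESeq2 with the batch block, and the block with those libraries left out, were chosen after seeing the data. Depth limits what can be read from Tlr3, which had between 0 and 41 counts per library, and Tlr5, Tlr8, Tlr11 and Tlr13 did not pass the filter on low counts.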
